A study of Homo sapiens with 14 samples.

Results

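The 9 genes described here are DCT, TYRP1, PMEL, MITF, SOX10, FOXD3, TFAP2A, TFAP2B and ERBB3, known for their roles in the neural crest and in pigment cells. They are 9 of the 58051 genes in the deposited expression table. They were chosen by the measured values of DCT, which stood far higher in both engineered lines than in wild type cells, so differences from wild type are the basis of the choice and are given as a description without a test. RNA sequencing was done on MGE-like progenitors, which model in culture the medial ganglionic eminence (MGE), the ventral forebrain region that gives rise to many cortical interneurons. All cells derived from H9, an established human embryonic stem cell line, and were collected at day 25. All 4 groups had SB431542 (2 µM) and LDN193189 (200 nM), which block TGF-beta and BMP signalling, from day 0 to 6, then SHH (250 ng/mL) and purmorphamine (0.3 µM), a smoothened activator, from day 10 to 17.

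The groups were wild type (WT, n = 3), Ctnnb1 knockout (KO, n = 5), the inducible Ctnnb1 overexpression line kept free of doxycycline (OE without Dox, n = 3), and that line given doxycycline at 0.1 µg/mL between day 17 and day 25 (OE with Dox, n = 3). CTNNB1 encodes beta-catenin. The labels give neither the number of clones behind each line nor the form of beta-catenin expressed. Doxycycline was not given to WT cells, so effects of the drug and of the induced gene cannot be told apart. Nothing says that the libraries of a group came from separate cultures, so p-values measure the spread between these libraries, which may be technical.

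The neural crest is a migratory population that leaves the dorsal border of the neural tube and forms melanocytes, peripheral neurons and glia, and much of the facial skeleton. TFAP2A, TFAP2B and FOXD3 act early at that border, SOX10 maintains migrating crest cells and switches on MITF, and MITF in turn drives the melanosome genes DCT, TYRP1 and PMEL. WNT signalling through beta-catenin promotes crest induction and the melanocyte fate, and MITF is a known target of TCF and LEF factors. The same pigment genes are also used in the pigmented epithelium of the retina, and mouse Dct is transcribed in forebrain progenitors as well.

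Between 5233270 and 5639725 reads were assigned to genes in each library. CTNNB1 (chromosome 3, 41194741 to 41260096) was at 3248 to 4393 in WT, 2090 to 2779 in KO and 3084 to 3633 in OE without Dox, against 23860 to 31290 in OE with Dox, all in normalized counts, which are reads divided by 1 size factor per library. How the knockout was made is not given, so the RNA level in KO does not check it. Of 12 markers of MGE and ventral forebrain all 12 were tested and none was at 0 in all libraries. Their summed level was 3306 to 3434 in WT, 10400 to 12440 in KO, 7225 to 11390 in OE without Dox and 2037 to 2906 in OE with Dox. In bulk RNA, fewer cells of a type and less RNA per cell cannot be told apart.

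The promoters of DCT, TYRP1 and MITF are shown because these genes lie in 1 known chain, from a TCF and LEF site in MITF to MITF sites in its targets. Where a gene had several windows, the one printed was picked because it holds a match to TCATGTG or CTTTGAT. The other windows of DCT and MITF held no match to any motif searched. RefSeq windows (GRCh38.p14) were found for 6 of the 9 genes, 10 windows in all, and PMEL, SOX10 and ERBB3 had no entry. The 250 bases before each start were searched on both strands for TCATGTG, an extended E-box bound by MITF, for its core CATGTG and for CACGTG, and for the TCF and LEF motifs CTTTGAA and CTTTGAT. Capitals mark TCATGTG, its reverse complement or CTTTGAT.
DCT, chr13:94479683-94479932, minus strand: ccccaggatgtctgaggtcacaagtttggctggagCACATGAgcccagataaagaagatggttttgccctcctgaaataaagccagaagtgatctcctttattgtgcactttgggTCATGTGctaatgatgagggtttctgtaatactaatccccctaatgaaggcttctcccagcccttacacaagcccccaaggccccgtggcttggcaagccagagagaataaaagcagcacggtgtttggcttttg
TYRP1, chr9:12693135-12693384, plus strand: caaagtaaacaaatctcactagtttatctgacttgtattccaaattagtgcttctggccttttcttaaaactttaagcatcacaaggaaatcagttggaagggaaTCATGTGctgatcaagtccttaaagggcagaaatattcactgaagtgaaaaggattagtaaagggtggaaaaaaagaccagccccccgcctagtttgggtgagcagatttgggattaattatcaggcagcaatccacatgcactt
MITF, start farthest downstream, chr3:69936342-69936591, plus strand: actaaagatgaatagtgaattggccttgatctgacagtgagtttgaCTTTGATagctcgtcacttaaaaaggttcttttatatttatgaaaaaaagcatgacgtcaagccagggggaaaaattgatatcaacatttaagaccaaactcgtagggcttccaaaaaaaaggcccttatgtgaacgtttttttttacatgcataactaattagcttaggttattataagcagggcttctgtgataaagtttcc

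In the DCT window shown TCATGTG began at -215, on the opposite strand, and at -135, counted back from the start. In TYRP1 it began at -145. It was in 2 of the 10 windows of these genes and in 2.52% of all 35116 RefSeq windows of that length. CATGTG alone, which lies within TCATGTG, was in the same 2 windows and in 9.42% of all windows, with 1 more match in TYRP1 at -11. CTTTGAT was in 1 of the 10 windows, the MITF window shown, at -204, and in 2.26% of all windows. CTTTGAA was in 0 of the 10 and in 3.80% of all, and CACGTG in 1, that of FOXD3, and in 6.34% of all. The map of these matches shows their spacing. The matches are letters in the reference sequence, and binding was not measured here.

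**Figure D1:**
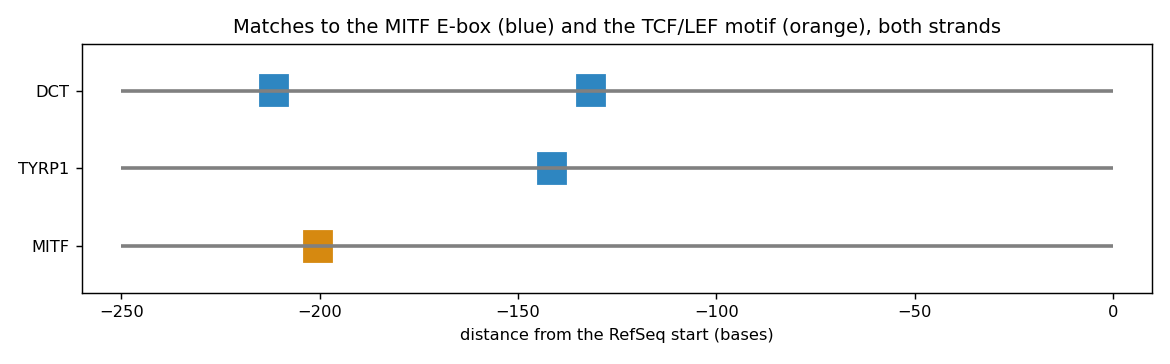
Distance from the RefSeq start in bases (x axis) of matches to TCATGTG (blue) and CTTTGAT (orange) in 1 window each of DCT, TYRP1 and MITF (rows), with a grey line for the 250 bases searched. The DCT window shown holds 2 matches to TCATGTG and that of TYRP1 1, while the MITF window holds 1 match to CTTTGAT. Other windows of DCT and MITF, which held no match, are left out.

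SOX10, the defining gene of migrating crest (chromosome 22, 37970686 to 37987422), had 0 reads in all 14 libraries, and a count of 0 allows up to 3 reads, or a normalized count of 2.60 to 2.84, per library. Exons of another gene, POLR2F on the opposite strand, cover 5.4% of the SOX10 exon bases in GENCODE 44. The annotation release and strand setting of the counting are not given, so whether SOX10 reads were lost in the counting was not tested. FOXD3 (chromosome 1, 63322567 to 63325128) stood at 0, 5.36 and 6.06 in WT, at 0 to 1.89 in KO, at 0, 0.925 and 0 in OE without Dox, and at 3.69, 0.929 and 1.84 in OE with Dox. These values come from 13, 4, 1 and 7 reads, and 24.1% of its exon bases are shared with FOXD3-AS1. FOXD3 above the limit of a count of 0 was seen in WT 2, WT 3 and 1 OE with Dox library. MLANA, a melanocyte surface antigen, stood at 0.894 to 3.79 in WT, 0.895 to 5.67 in KO, 0.907 to 5.49 in OE without Dox and 0 to 1.86 in OE with Dox. Other crest genes were read at higher levels. PAX3, a border and melanoblast factor, was highest with Dox, at 306 ± 287, then in WT at 129 ± 50.8, and low in OE without Dox at 21.9 ± 17.3 and KO at 5.86 ± 2.75. Its libraries with Dox ranged from 17.5 to 592. ETS1, a factor of cranial crest, was at 22.5 ± 4.75, 20.4 ± 2.77, 6.16 ± 7.71 and 3.12 ± 1.66 in that order of groups. NGFR and SNAI1, also of the crest list, were instead highest in WT and low with Dox. In the same order NGFR was at 89.5 ± 38.5, 347 ± 88.6, 116 ± 60.9 and 105.5 ± 43.4. SNAI1 was at 5.86 ± 2.13, 59.8 ± 48.7, 5.20 ± 2.36 and 9.57 ± 6.19. The markers are thus mixed, with SOX10 listed at 0 and FOXD3 and MLANA near it, so the genes are called here by name and not as a cell type.

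DCT (dopachrome tautomerase, an enzyme of melanin synthesis; chromosome 13, 94436811 to 94479682) was the gene that led to the choice of the list. Its normalized count was 17.0, 31.3 and 6.06 in WT. In KO it was 274, 279.5, 139.8, 287.5 and 384, and in OE without Dox 294.5, 180.4 and 313. The induced libraries of OE with Dox stood at 54.5, 128 and 35.0. The groups fall in 3 tiers that do not overlap: WT lowest, OE with Dox between, and KO and OE without Dox together at the top. The ratio of means to WT was 15.1 for KO, 14.5 for OE without Dox and 4.00 once Dox was given, given as a description of what chose the gene.

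Between the engineered groups DCT was compared with limma. The choice used other contrasts, but the same libraries enter these tests, so they are not independent of it. With Dox it fell from 263 ± 71.7 to 72.6 ± 49.2 (SD, n = 3 each), by a log2 fold of -2.01 with an SE of 0.55 (adjusted p = 0.015 over 17102 genes), lower in 3 of 3 libraries. Over 25 alternatives that adjusted p ran from 0.0028 to 0.071. The call ended without the filter on low genes and when OE without Dox 1 or 3, or OE with Dox 1 or 3, was left out. KO, at 273 ± 87.0 (n = 5), and OE without Dox were not called different (log2 fold 0.03, SE 0.49, adjusted p = 1). OE with Dox was lower than KO by a log2 fold of -2.03 with an SE of 0.49 (adjusted p = 0.0055), a call that held under all 25 alternatives (0.00086 to 0.039). DCT was thus high in KO and in the uninduced OE line, and lower in that line with Dox. The summed MGE markers given above were also highest in KO and OE without Dox, but their lower groups stood in the opposite order, with WT above OE with Dox. Their part in the DCT values was not tested.

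TYRP1 (tyrosinase-related protein 1, which acts after DCT in melanin synthesis; chromosome 9, 12685439 to 12710285) did not follow DCT in KO. It stood at 4.73, 2.68 and 3.47 in WT and at 0.924, 0.944, 3.78, 1.80 and 0 in KO, which is 8 reads over 5 libraries. In OE without Dox it was 76.8, 37.0 and 49.9, and in OE with Dox 31.4, 32.5 and 7.37. Both OE groups lay above every WT and KO library. TYRP1 passed the filter only through these groups, so its difference from the others is partly built in. KO was lower than OE without Dox by a log2 fold of -4.60 with an SE of 0.51 (adjusted p = 2.5e-05), and OE with Dox was higher than KO by 3.26 with an SE of 0.51 (adjusted p = 5.9e-05). Both calls held under all 24 alternatives. The change with Dox, -1.35 with an SE of 0.57 (adjusted p = 0.095), did not pass the test, although the 2 OE groups did not overlap. With a pseudocount of 5 it passed (adjusted p = 0.025, range over 24 alternatives 0.025 to 0.43).

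PMEL (the protein that forms the fibrils of the early melanosome; chromosome 12, 55954105 to 55973317) had the highest level of the 9 genes per exon length in WT and in both OE groups. Its normalized count was 216, 233 and 269 in WT, and 55.4, 108, 61.4, 105 and 205 in KO. It was 388, 354 and 261 in OE without Dox, and 669.5, 1297 and 704 in OE with Dox. KO lay below every other library and OE with Dox above every other one, while WT and OE without Dox overlapped. With Dox PMEL rose by a log2 fold of 1.36 with an SE of 0.39 (adjusted p = 0.017), opposite in direction to DCT. That adjusted p ran from 4e-04 to 0.076 over 25 alternatives, and the call ended without the filter, without OE without Dox 3 and without OE with Dox 2. KO was lower than OE without Dox by -1.78 with an SE of 0.35 (adjusted p = 0.011). This call ended without the filter and without OE without Dox 1 or 2 (range 6e-05 to 0.075). OE with Dox stood above KO by 3.14 with an SE of 0.35 (adjusted p = 4.1e-06), under all 25 alternatives.

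MITF, the master regulator of melanocytes (chromosome 3, 69739456 to 69968336), was low in all groups. It stood at 11.4, 10.7 and 6.93 in WT and at 3.70, 9.44, 16.1, 11.7 and 17.0 in KO, which overlap. In OE without Dox it was 59.4, 28.7 and 33.5, and in OE with Dox 33.2, 71.6 and 28.6. The 2 OE groups overlapped each other (log2 fold 0.08, SE 0.46, adjusted p = 0.92), and both lay above every WT and KO library. KO was lower than OE without Dox by a log2 fold of -1.80 with an SE of 0.41 (adjusted p = 0.024). Leaving out KO 2 or any 1 of the 3 OE without Dox libraries ended that call (range over 24 alternatives 0.0021 to 0.17). OE with Dox was higher than KO by 1.88 with an SE of 0.41 (adjusted p = 0.0016), under all 24 alternatives. DCT was therefore high in KO libraries in which MITF overlapped WT and TYRP1 was near 0. The table is per gene, so reads from the start shown above were not separated from those of the other MITF starts.

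On the scale of normalized counts per kilobase of exon, which allows genes to be set side by side, OE without Dox held PMEL at 91.1 ± 17.9, DCT at 34.8 ± 9.51, TYRP1 at 14.6 ± 5.44 and MITF at 5.47 ± 2.23. In KO the order was DCT at 36.2 ± 11.5, PMEL at 29.1 ± 16.3, MITF at 1.56 ± 0.727 and TYRP1 at 0.398 ± 0.383, and the means of DCT and PMEL there differed by less than either SD. In WT it was PMEL at 65.2 ± 7.44, DCT at 2.40 ± 1.68, MITF at 1.30 ± 0.323 and TYRP1 at 0.971 ± 0.277. In OE with Dox it was PMEL at 243 ± 96.1, DCT at 9.63 ± 6.52, TYRP1 at 6.36 ± 3.80 and MITF at 5.99 ± 3.18, of which the last 3 lay within 1 SD of the mean of DCT.

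**Figure D2:**
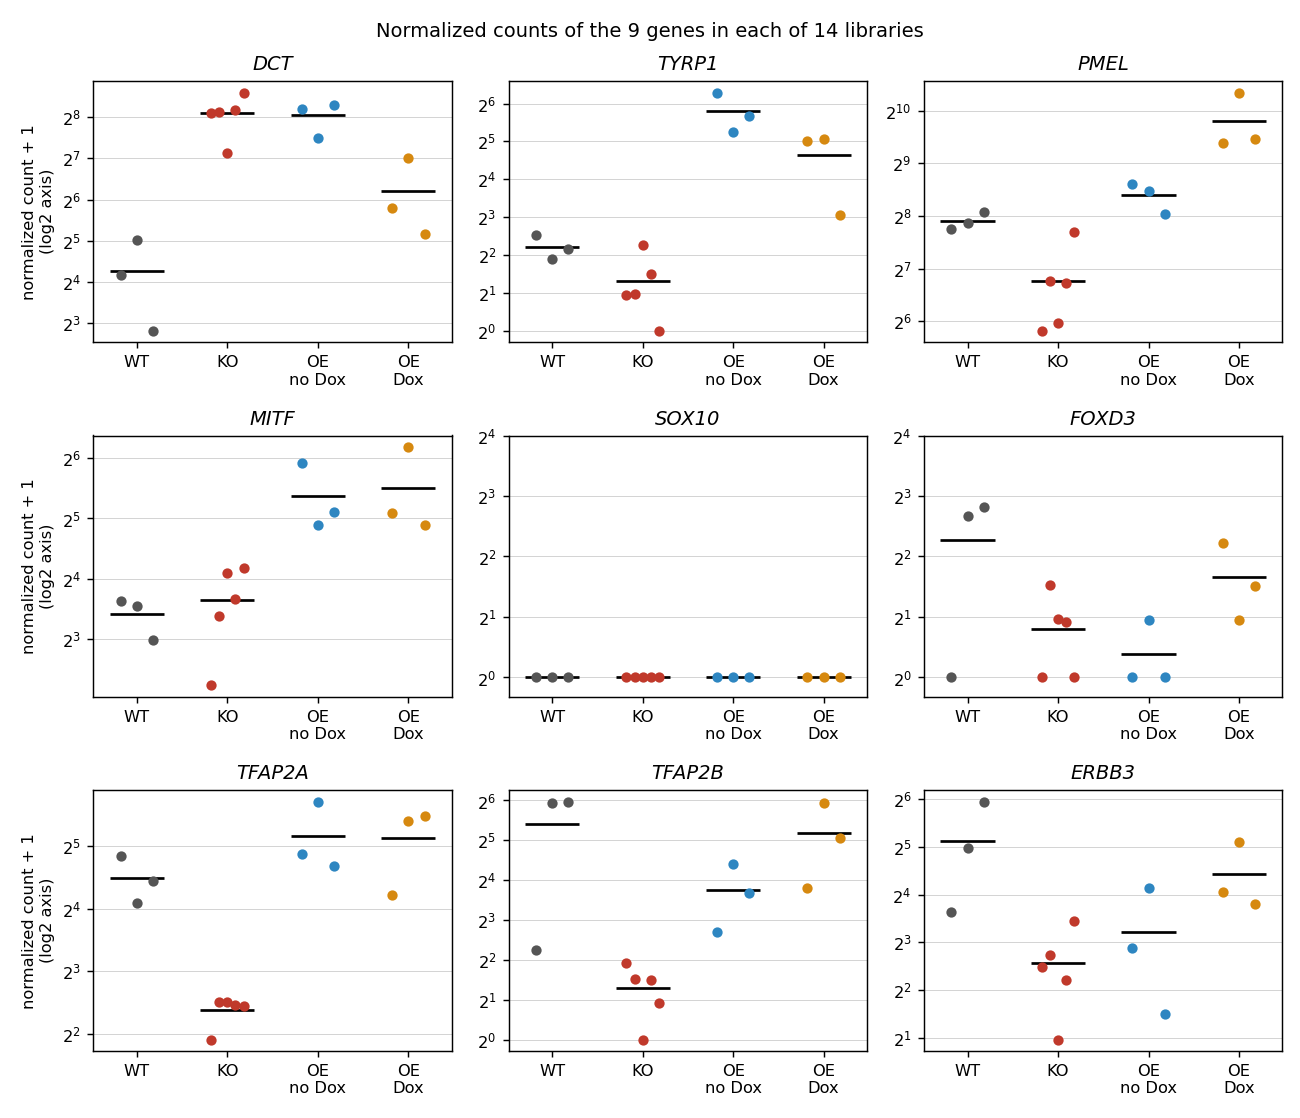
Normalized count plus 1 on a log2 axis (y) by group (x) for the 9 genes, 1 point per library, with a black line at the group mean (n = 3 for WT, 5 for KO, 3 for OE without Dox and 3 for OE with Dox). DCT is high in KO and OE without Dox, TYRP1 and MITF are high in both OE groups only, TFAP2A and TFAP2B are lowest in KO, and SOX10 is at 0 throughout.

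TFAP2A, a factor of the neural plate border and of surface ectoderm (chromosome 6, 10393186 to 10419659), was low in KO alone. It stood at 27.5, 16.1 and 20.8 in WT, at 2.77, 4.72, 4.72, 4.49 and 4.47 in KO, at 28.4, 50.9 and 24.5 in OE without Dox, and at 17.5, 40.9 and 43.3 in OE with Dox. Every KO library, with 3 to 5 reads, lay below every other library, and the other groups overlapped. KO was lower than OE without Dox by a log2 fold of -2.71 with an SE of 0.34 (adjusted p = 8.8e-05), and OE with Dox was higher than KO by 2.65 with an SE of 0.34 (adjusted p = 5.3e-06), both under all 24 alternatives. The change with Dox was -0.06 with an SE of 0.38 (adjusted p = 0.93). Exons of antisense genes cover 16.8% of its exon bases in GENCODE 44, and the strand setting of the counting is not given.

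TFAP2B, a close relative of TFAP2A (chromosome 6, 50818723 to 50847619), stood at 3.79, 59.9 and 61.5 in WT, so that WT 1 was apart from the other 2. It was at 2.77, 1.89, 0, 1.80 and 0.895 in KO, 5.49, 20.4 and 11.8 in OE without Dox, and 12.9, 60.4 and 32.3 in OE with Dox. Every KO library lay below every other library, and the library numbered 1 was the lowest in the 3 other groups. OE with Dox was higher than KO by a log2 fold of 3.76 with an SE of 0.76 (adjusted p = 0.001), under all 25 alternatives. KO against OE without Dox, at -2.43 with an SE of 0.76, was not called (adjusted p = 0.17). It was called by DESeq2, in a fit of both groups alone and without WT 1 (range 0.012 to 0.61). The change with Dox was 1.34 with an SE of 0.85 (adjusted p = 0.28).

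ERBB3, the neuregulin receptor of migrating crest and Schwann cell precursors (chromosome 12, 56076799 to 56103505), stood at 11.4, 30.4 and 60.6 in WT. It was at 4.62, 5.67, 0.945, 3.59 and 9.84 in KO, at 6.40, 16.7 and 1.81 in OE without Dox, and at 15.7, 33.5 and 12.9 in OE with Dox. WT and KO did not overlap, and neither did KO and OE with Dox, while OE without Dox spanned from KO levels into WT levels. OE with Dox was higher than KO by a log2 fold of 1.96 with an SE of 0.63 (adjusted p = 0.025). That call ended without the filter, without KO 3 and without OE with Dox 2 (range 0.0077 to 0.12). Neither the change with Dox (1.48, SE 0.71, adjusted p = 0.14) nor KO against OE without Dox (-0.48, SE 0.63, adjusted p = 0.96) was called. Without OE without Dox 2 the change with Dox passed the test (range over 24 alternatives 0.042 to 0.47).

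Counted over the 7 genes that passed the filter, 1 was called higher with Dox (PMEL) and 1 lower (DCT), where limma called 12.8% of all tested genes higher and 12.9% lower. In KO against OE without Dox 0 were higher and 4 lower (TYRP1, PMEL, MITF and TFAP2A), against 0.351% and 1.75% of all genes. At an unadjusted p under 0.05 that was 0 and 5, edgeR called 0 and 4, and DESeq2 0 and 5. In OE with Dox against KO 6 were higher and 1, DCT, was lower, against 16.8% and 15.6% of all genes. These comparisons share libraries. The groups did not overlap in 1 gene higher and 2 lower with Dox (21.2% and 19.5% of all tested genes), in 0 and 5 in KO against OE without Dox (2.47% and 4.39%), and in 6 and 1 in OE with Dox against KO (17.5% and 15.6%). TYRP1, which could pass the filter only where it was high, is among these counts. DCT, whose high levels in the engineered lines chose the list, is among them too, so its calls are not independent of the choice.

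Against WT, where DCT served to choose the list, the same 7 genes are given as counts only. In KO 1 did not overlap WT upward (DCT) and 4 downward (PMEL, TFAP2A, TFAP2B and ERBB3), where 8.61% and 9.53% of all tested genes did so. In OE without Dox 3 lay wholly above WT (DCT, TYRP1 and MITF) and 0 below, beside 11.6% and 11.4%. In OE with Dox 4 lay above (DCT, TYRP1, PMEL and MITF) and 0 below, beside 16.1% and 15.4%. The log2 folds were -2.09 for TFAP2A, -3.55 for TFAP2B, -2.48 for ERBB3 and -1.31 for PMEL in KO. In OE without Dox they were 3.55 for TYRP1 and 1.92 for MITF. TFAP2B in OE with Dox had a log2 fold of 0.21 against WT, and of -1.01 without WT 1.

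**Figure D3:**
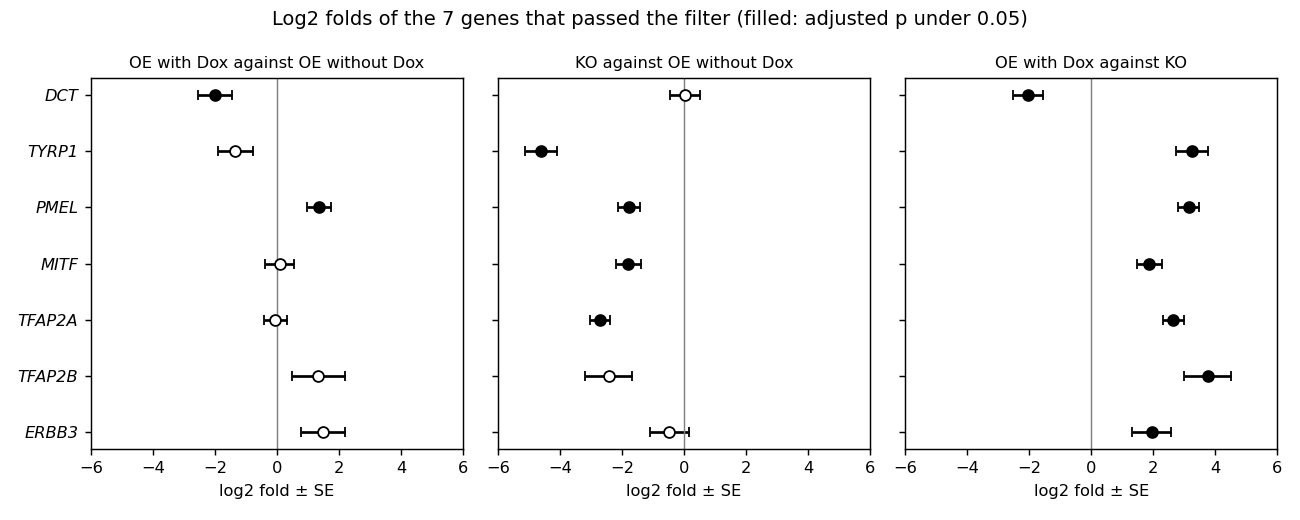
Log2 fold (x axis) with its SE (bars) of the 7 genes that passed the filter (rows) in the 3 comparisons between engineered groups (panels), from limma on 14 libraries, filled where the adjusted p was under 0.05. DCT is the only one of the 7 that is lower in OE with Dox than in KO, and TYRP1 has the lowest fold in KO against OE without Dox.

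The other genes of the melanosome and of melanin synthesis were mostly close to the limit of detection or did not differ between KO and OE without Dox. Of 22 such genes 14 passed the filter. Beside the counts here and for the crest regulators, receptors and ligands below, limma called 12.8% of all tested genes higher and 12.9% lower with Dox. The shares were 0.351% and 1.75% in KO against OE without Dox, and 16.8% and 15.6% in OE with Dox against KO. TYR, the rate-limiting enzyme of melanin synthesis, stood at 0 to 1.89 in WT, 0 to 0.945 in KO, 3.70 to 8.23 in OE without Dox and 3.69 to 24.2 in OE with Dox, from 3, 1, 18 and 35 reads. TRPM1, a channel gene under MITF control, had 0, 4, 25 and 20 reads in these groups, and TFEC, a relative of MITF, had 3, 1, 29 and 5. All 3 were too low to be tested, and as with TYRP1 their reads were mostly in the OE groups. The other untested melanosome genes were mixed. In the same order of groups GPNMB had 27, 10, 13 and 23 reads, and SLC45A2 12, 34, 31 and 32. CAPN3 had 7, 7, 5 and 5, ABCB5 3, 2, 2 and 0, MLANA 7, 14, 11 and 3, and MLPH 0, 1, 3 and 20. With Dox 4 of the 14 were higher and 3 lower, with a median log2 fold of 0.25 beside 0.02 over all tested genes. OCA2, a melanosome ion transport protein, rose from 32.0 ± 9.32 to 300 ± 48.5 (log2 fold 3.22, SE 0.27, adjusted p = 8.3e-08). SLC24A5, a pigment cell cation exchanger, went from 3 reads over 3 libraries to a level of 21.0 ± 2.01 and was called (adjusted p = 9.8e-05). It passed the filter only through OE with Dox, so its difference is partly built in. LYST, which acts in lysosome traffic, fell from 155 ± 20.2 to 82.0 ± 16.3 (log2 fold -0.92, SE 0.18, adjusted p = 9e-04).

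Between KO and OE without Dox, limma called 0 of the 14 melanosome genes higher and 0 lower (0 and 1 at an unadjusted p under 0.05, 0 and 0 with edgeR, 0 and 1 with DESeq2), with a median of -0.03 beside 0.00. MYO5A, a motor of melanosome transport that neurons also use, was at 889 ± 94.7 and 873 ± 90.1 there. In OE with Dox against KO 5 were higher and 3 lower, with a median of 0.31 beside 0.02. The plot of melanosome genes shows that the rise of OCA2 and SLC24A5 with Dox was in all 3 libraries, at 269.5 to 355.5 and 19.4 to 23.2.

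**Figure D4:**
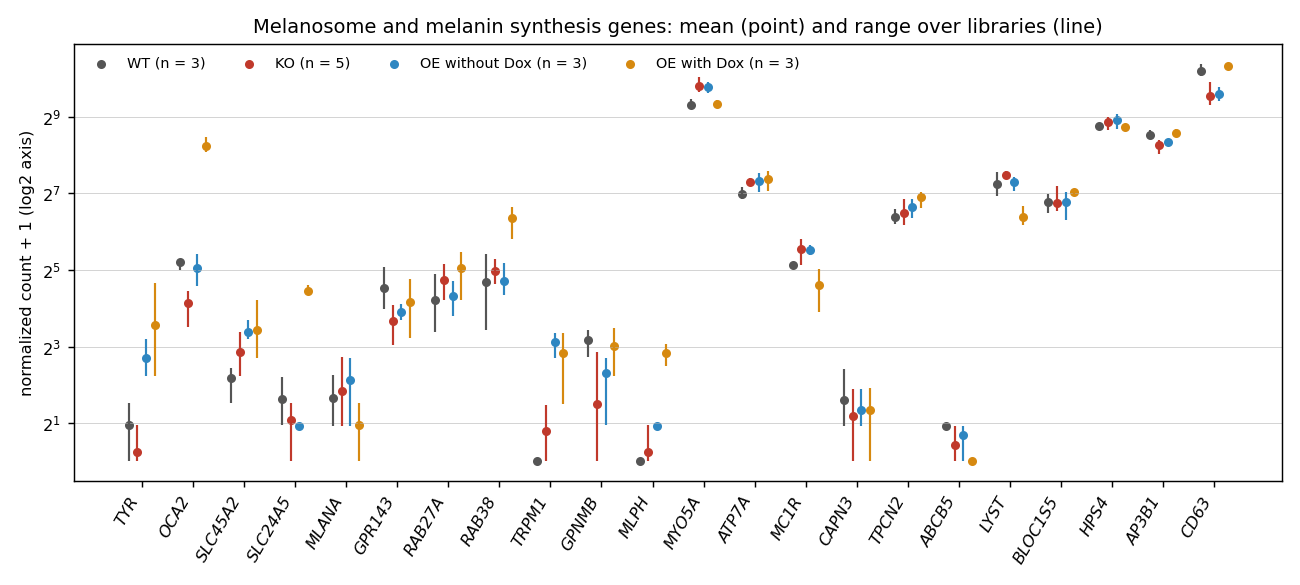
Normalized count plus 1 on a log2 axis (y) of 22 melanosome and melanin synthesis genes (x), with the group mean as a point and the range over libraries as a line, coloured by group. OCA2 and SLC24A5 stand out in OE with Dox, while MLANA and TRPM1 stay below 10 in all libraries.

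Other regulators of the neural crest were a mixed group. Of 22 genes 21 were tested. With Dox 7 were higher and 3 lower, with a median log2 fold of 0.21 beside 0.02 over all genes. MSX1, a border factor downstream of BMP, rose from 44.8 ± 14.9 to 557.5 ± 142 (log2 fold 3.63, SE 0.34, adjusted p = 3e-07), while SOX9, which crest and forebrain progenitors share, fell from 1054 ± 222 to 140.1 ± 50.4 (-2.94, SE 0.24, adjusted p = 5.9e-08). SOX5, also used by neurons, fell from 582 ± 0.806 to 260.5 ± 30.4 (-1.16, SE 0.14, adjusted p = 3.2e-06). TWIST1, a factor of crest mesenchyme, was called higher too, at 22.8 ± 6.18 against 7.06 ± 7.56 (1.95, adjusted p = 0.027), but the groups overlapped and it passed the filter only through OE with Dox.

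KO had 0 of these crest regulators higher and 3 lower than OE without Dox (MSX1, MSX2 and PAX7; 0 and 8 at an unadjusted p under 0.05, 0 and 3 with edgeR and with DESeq2), with a median of -0.34 beside 0.00. PAX7, a border factor, was at 3.33 ± 0.904 in KO and 17.7 ± 6.43 in OE without Dox (log2 fold -2.08, SE 0.47, adjusted p = 0.019). That call ended with a pseudocount of 5 and without OE without Dox 1 or 2 (adjusted p over 24 alternatives 0.0031 to 0.16), and that of MSX2 ended with the replicate block and without OE without Dox 2 or 3 (0.00057 to 0.14). OE with Dox against KO had 10 higher and 3 lower, with a median of 1.24 beside 0.02. Against WT, KO had 2 higher and 9 lower of the 21, OE without Dox 2 and 4, and OE with Dox 4 and 5, where limma called 6.64% and 7.15%, 3.43% and 2.32%, and 10.4% and 10.1% of all genes.

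Receptors and ligands that act with these genes also differed. Of 15 genes 13 were tested, and with Dox 1 was higher and 5 lower, with a median of -0.24. EDN3, the endothelin that expands melanoblasts, went from 3.36 ± 2.33 to 62.9 ± 17.8 (log2 fold 4.00, SE 0.57, adjusted p = 3.4e-05), and it too passed the filter only through OE with Dox. Its receptor EDNRB fell from 424 ± 48.0 to 122 ± 62.8 (-1.96, adjusted p = 0.0021), and KIT, the receptor of melanoblast survival, from 257 ± 24.6 to 104 ± 32.1 (-1.35, SE 0.23, adjusted p = 0.00021). In KO against OE without Dox 0 were higher and 3 lower, with a median of -0.20 (1 and 4 at an unadjusted p under 0.05, 0 and 3 with edgeR, 1 and 3 with DESeq2). ERBB4, which like ERBB3 binds neuregulins, was at 38.7 ± 8.68 against 169 ± 29.9 (-2.11, SE 0.22, adjusted p = 1.1e-05). OE with Dox against KO had 4 higher and 3 lower, with a median of -0.25.

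Lists for the other cell types that use these genes were read beside them. For each list from here on, the shares of all tested genes called were 12.8% higher and 12.9% lower with Dox. They were 0.351% and 1.75% in KO against OE without Dox, and 16.8% and 15.6% in OE with Dox against KO. Of 16 genes of retinal pigment epithelium and optic vesicle 12 were tested, with 2 higher and 7 lower with Dox, 0 and 3 in KO against OE without Dox (0 and 5 at an unadjusted p under 0.05, 0 and 4 with edgeR, 0 and 5 with DESeq2), and 4 and 4 in OE with Dox against KO. The medians were -1.22, -0.47 and -0.09. The summed level of the list was 4597 to 4847 in WT, 2898 to 3938 in KO, 4293 to 4797 in OE without Dox and 4374 to 6037 in OE with Dox, and no gene of it was at 0 in all libraries. Much of the WT sum was PAX6 (mean 2403) and OTX2 (1252). In WT, KO, OE without Dox and OE with Dox the means of RPE65 were 3.69, 1.85, 1.53 and 20.3. Those of RLBP1 were 3.66, 2.59, 2.15 and 1.23, and those of SERPINF1 211, 243, 261 and 1185. Its part in the TYRP1 values was not tested.

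Of 13 genes of non-neural ectoderm and epithelium 9 were tested, with 7 higher and 0 lower with Dox (8 and 1 at an unadjusted p under 0.05, 7 and 0 with edgeR and DESeq2), 0 and 1 in KO against OE without Dox (0 and 2, 0 and 1, and 0 and 1), and 8 and 1 in OE with Dox against KO. The medians were 2.03, -0.18 and 2.30. With the replicate block, 1 was lower with Dox and 0 were lower in KO. KRT19, a simple keratin, rose with Dox from 31.5 ± 13.5 to 185 ± 69.7 and was at 9.60 ± 1.23 in KO, a call against OE without Dox that ended with the replicate block and without OE without Dox 2 or 3 (adjusted p 0.00074 to 0.12). The summed level was 181 to 301 in WT, 105 to 135 in KO, 125 to 229.5 in OE without Dox and 439 to 962 in OE with Dox, and KRT14 was at 0 in all libraries. TFAP2A, a gene of that tissue too, was lowest in KO without overlap, while the sums of KO and OE without Dox overlapped. With Dox the log2 fold of TFAP2A was -0.06, beside the list median of 2.03. The part of such cells in the TFAP2A values was not tested.

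Of 12 mesenchyme genes all 12 were tested, with 8 higher and 1 lower with Dox, 0 and 4 in KO against OE without Dox (1 and 6 at an unadjusted p under 0.05, 0 and 2 with edgeR, 0 and 5 with DESeq2), and 10 and 1 in OE with Dox against KO. The medians were 2.66, -1.42 and 4.40. FBN1, a matrix protein, rose with Dox from 233 ± 59.8 to 899 ± 216 (log2 fold 1.95, SE 0.21, adjusted p = 1.7e-06). The summed level was 937 to 2446 in WT, 499 to 785 in KO, 694 to 2189 in OE without Dox and 3310 to 8156 in OE with Dox, highest in the group in which PMEL was highest. Its part in the PMEL values was not tested.

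Genes of crest derivatives other than pigment cells gave no common direction. Of 13 Schwann cell and satellite glia genes 10 were tested, with 3 higher and 3 lower with Dox, 0 and 1 in KO against OE without Dox (0 and 1 at an unadjusted p under 0.05, 0 and 0 with edgeR, 0 and 1 with DESeq2), and 4 and 5 in OE with Dox against KO, with medians of 0.00, 0.29 and -0.88. CDH19, a marker of Schwann cell precursors, had 8, 4, 1 and 1 reads in WT, KO, OE without Dox and OE with Dox. Of 16 genes of peripheral neurons 10 were tested, with 2 higher and 3 lower with Dox, 0 and 1 in KO against OE without Dox (0 and 1 in each of the other counts), and 3 and 3 in OE with Dox against KO, with medians of -0.13, -0.35 and 0.31. With the replicate block, 1 of the 10 was higher with Dox.

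The MITF relatives TFEB and TFE3 were the 2 tested of 3. Neither was called with Dox or in KO against OE without Dox (0 at an unadjusted p under 0.05, with edgeR or with DESeq2), and TFEB was higher in OE with Dox than in KO (16.7 ± 6.06 and 4.27 ± 4.72, log2 fold 2.16, adjusted p = 0.031). That call ended without the filter, with edgeR and without KO 3 or 5 or OE with Dox 1 or 2 (adjusted p 0.0065 to 0.11). TFEB passed the filter only through the OE with Dox libraries, so its difference is partly built in. The medians were 0.90, -0.21 and 1.11. Of the 12 MGE and ventral forebrain markers 0 were higher and 11 lower with Dox (0 and 12 at an unadjusted p under 0.05, with edgeR and with DESeq2). In KO against OE without Dox 0 and 0 were called, also at an unadjusted p under 0.05, with edgeR and with DESeq2, and in OE with Dox against KO 0 and 12. The medians were -2.87, 0.08 and -2.86. In OE with Dox against WT 2 of the 12 were higher and 9 lower, with a median of -2.49, where DCT had a log2 fold of 1.99.

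Genes most like each of the 7 in pattern were found by Pearson correlation of log2 levels over the 14 libraries, given as a description since the libraries share groups. For DCT these were CASK (0.965), NAT16 (0.955) and MIR9-1HG (0.941). MIR9-1HG stood at 19.9, 546, 600 and 34.3 in WT, KO, OE without Dox and OE with Dox, and CASK, a scaffold protein of synapses, at 762, 1127, 1203 and 947. For TYRP1 they were SYNPR (0.907), CP (0.902) and ERICH5 (0.876), and for MITF CPAMD8 (0.835), HOMER2 (0.832) and TIFA (0.83). PMEL was most like CCDC80 (0.956), RBMS1 (0.935) and LAMB1 (0.926), a laminin chain that stood at 123, 48.5, 119 and 1233 in the same order of groups. TFAP2A was most like ADAMTS18 (0.936), CGNL1 (0.932) and NEUROG1 (0.932), TFAP2B like CYP26A1 (0.929), FAP (0.912) and ID3 (0.91), and ERBB3 like APOE (0.914), KIZ (0.911) and CLDN5 (0.899). No gene was among the first 3 for more than 1 of the 7.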

How the data were processed

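The deposited table holds, per the file headers and the values, a normalized signal for 58051 Ensembl genes in 14 libraries: gene read counts that the authors divided by 1 size factor per library. Per the submitters' processing notes the tools were TopHat2 2.1.1, HTSeq 0.9.1, R 3.4.0 and DESeq2, with hg38; their roles, the annotation release and the strand setting are not given in the sources used here. Whole reads were recovered for 100% of values above 0 at a tolerance of 0.01 reads (0.866 to 0.947 per read). Names, positions and exon lengths are from GENCODE 44, which names 56948 genes, and sequences from RefSeq.

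The 17102 genes that reached a normalized count of 10 in 3 or more libraries were tested with limma 3.58.1 in R 4.3.3 on log2(normalized count + 1), a scale that understates the change of low genes. It was 1 model of 4 groups with trend and robust empirical Bayes, two-sided, with Benjamini-Hochberg adjustment over all tested genes at 0.05. Levels are means ± SD. On simulated data with 200 changed genes, for OE with Dox against OE without Dox, 93.9% of those changed 4-fold and 40% of those changed 2-fold were called. Of the calls, 2.21% were on unchanged genes. The simulation gave every gene the same dispersion of 0.05. These shares therefore do not apply to genes of wider spread, such as DCT in OE with Dox (72.6 ± 49.2). The members, the 10 wider lists and the tests were chosen with earlier results of these data known. The rule for naming genes takes the 9 members, CTNNB1, up to 3 called genes of lowest adjusted p per list and comparison (or the 1 of highest mean), and the 3 genes most like each member. TYR, TRPM1, TFEC, MLANA, PAX3, ETS1, TWIST1, CDH19, RPE65, RLBP1, EDNRB where named with Dox, and those that make up small counts, were named after their values were seen. So were GPNMB, SLC45A2, CAPN3, ABCB5, MLPH, NGFR and SNAI1. Some genes that the rule takes are not reported here.

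The labels share replicate numbers. For the change with Dox, the same-numbered libraries deviated together (r = 0.22, 0.248 and 0.402 over genes), so the numbers were taken to pair them. The main fit did not use these pairs, and a fit with a replicate block was run as an alternative. The alternatives were other pseudocounts (0.5 and 5), filters and scalings, limma without the robust option, the recovered reads in edgeR 4.0.16 and in DESeq2 1.42.0, fits of the compared groups alone, the replicate block, and leaving out each library. The limit given for a count of 0 covers counting error only. The labels name no molecular identifiers, so PCR copies of a molecule would count as separate reads. SDs and SEs come from the spread between libraries. Figures and tables used Python 3.11.15, pandas 2.3.3 and matplotlib 3.10.9.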

Additional observations from a re-analysis of the deposited data

Results flagged for a closer look

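In the 5 KO libraries a few values lay apart from the other 4 by more than Dixon's 95% limit, which chance gives in about 1 of 20 groups, and 73 groups were looked at. TFAP2A was at 2.77 in KO 1 beside 4.47 to 4.72 in the others. MET was at 5.54 in KO 1 beside 2.83 to 3.59, TH at 99.8 in KO 1 beside 69.8 to 77.3, and GATA2 at 4.47 in KO 5 beside 0.944 to 1.89. HAND1 was at 0 in KO 4 beside 0.895 to 0.945, and NAT16 at 27.4 in KO 2 beside 35.9 to 38.8. ERICH5 was at 1.89 in KO 3, and CYP26A1 and FAP were each at 0.898 in KO 4, beside 0 in the other 4 libraries. Apart from TH and NAT16 these are differences of 1 to 3 reads.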

How the results depend on the processing

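Without the filter on low genes, 0 of the 9 genes were called higher and 0 lower with Dox, in place of 1 and 1, and with a pseudocount of 5 those lower were 2. With a filter of 50, which leaves fewer of the genes to test, 1 gene was lower in KO against OE without Dox in place of 4, and 2 were higher in OE with Dox against KO in place of 6. Leaving out each of the 14 libraries in turn gave 0 to 2 higher and 0 to 1 lower with Dox, 2 to 5 lower in KO against OE without Dox, and 5 to 6 higher in OE with Dox against KO. Over all genes, those higher in KO than in OE without Dox were 60, and 38 with a filter of 50, 92 with DESeq2 and 22 to 69 with a library left out, and those lower were 300, and 157 to 306 with a library left out. The cause was not tested beyond the smaller number of genes or libraries. No called fold of the 9 genes changed sign under any of the 25 alternatives. With the replicate block, 1 gene was higher and 1 lower with Dox, as without it, and no call on the 9 genes changed in any of the 3 comparisons between engineered groups. For the other 2 comparisons between engineered groups the numbers did not pair the libraries by the same check. Low depth limits SOX10, FOXD3, TYR and TYRP1 in KO, where a level rests on 0 to 8 reads over a group.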
